A study of Homo sapiens with 8 samples.

Results

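Integrin subunits are described here in CAPAN-2, an established cell line from a human pancreatic adenocarcinoma, after knockdown of the receptor ErbB2 or of the membrane mucin MUC4. The 10 genes were ITGA1, ITGA2, ITGA3, ITGA5, ITGA6, ITGAV, ITGB1, ITGB4, ITGB6 and ITGB7, each found by matching the accession of a probe to its current gene symbol. They were carried by 16 of the 41000 probes of the array and by 10 of its 17237 named genes. ITGA2 had 4 probes, ITGB1 had 3, ITGAV had 2 and each of the other genes had 1. Where a gene had several probes, the brightest over all arrays is given first.

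The study asked what ErbB2 and MUC4, which it treats as partners at the membrane, each control in these cells. Each experiment used 4 2-colour Agilent arrays, every one carrying RNA of a knockdown clone in 1 dye and the pooled RNA of 4 control clones in its partner dye. ErbB2-KD clones (EV7, EV12, EV9 and EV18 on arrays 1 to 4) stably carried a plasmid with a short hairpin RNA against ErbB2 under puromycin, and their NT controls carried the empty plasmid. MUC4-KD clones carried a retroviral vector with a hairpin against MUC4 under G418, with empty-vector Mock clones as controls, and the labels do not name the clones on their arrays. All clones came from limiting dilution of CAPAN-2, so each line was 1 clone, and on 1 array the effect of the clone and of the knockdown cannot be told apart. A log2 ratio is the log2 of the labelled knockdown over its control on 1 array, so that 1 is a doubling. A probe was tested where at least 1 of the paired RNAs was well above background on each of the 4 arrays. A probe was called at an adjusted p under 0.05 (limma with Benjamini-Hochberg adjustment over all probes tested).

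Integrins are receptors for the extracellular matrix and for other cells, each made of an α chain, encoded by an ITGA gene, and a β chain, encoded by an ITGB gene. The pair sets the ligand: α1β1 and α2β1 bind collagens, α3β1, α6β1 and α6β4 bind laminins, α5β1 binds fibronectin, and αvβ6 binds the latent form of TGF-β and activates it. The β1 chain is shared by many of these receptors, α6β4 anchors epithelial cells to the basement membrane in hemidesmosomes, and β7 pairs with α4 or αE and is best known from lymphocytes.

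The libraries are first set against their labels. The 6 epithelial markers were well above background in both channels of all 8 arrays, and at most 1 of the 5 fibroblast markers on the array was so in any channel. Of 6 leukocyte markers, 2 to 5 were well above background in a channel, and the defining PTPRC was so in 1 of the 16 channels, that of ErbB2-KD array 2. ERBB2 had a mean log2 ratio of -0.40 in ErbB2-KD, lower on 4 of 4 arrays, without passing the test (limma adjusted p = 0.145). Its second probe, also well above background, was at 0.04 there (limma adjusted p = 0.897). MUC4 had 4 probes. The brightest had a mean log2 ratio of 0.27 in the MUC4-KD experiment (limma adjusted p = 0.167), but the probes A_24_P208825 and A_24_P239183 were higher in the channel labelled MUC4-KD, at 1.84 (limma adjusted p = 0.00804; 0.0731 without array 3) and 1.34 (limma adjusted p = 0.0355; 0.121 to 0.169 without array 1, 2 or 3). This goes against the label, and the study lists this experiment in the opposite direction to that of the labels and the deposited ratios. MUC4-KD array 4 correlated with the other 3 at 0.32 to 0.52 over 25047 probes, and those 3 with each other at 0.67 to 0.83, while the ErbB2-KD arrays ranged from 0.21 to 0.72. Values below therefore divide the channel labelled MUC4-KD by the channel labelled Mock, and every sign of that experiment turns if the labels of its channels are exchanged.

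The spread of each channel over the 4 arrays of an experiment was also measured. Over 21919 probes well above background in both channels of the ErbB2-KD arrays, the median SD of the log2 intensity was 0.34 in the knockdown channel and 0.16 in the pool, and the knockdown channel was the more variable for 82.7% of probes. Over 21968 such probes on the MUC4-KD arrays, the median SD was 0.15 in the channel labelled MUC4-KD and 0.26 in the channel labelled Mock, and the labelled knockdown was the more variable for 26.7%. By their brightest probes, 10 of 10 integrins varied more in the ErbB2-KD channel than in NT, and 8 of 10 varied less in the channel labelled MUC4-KD than in that labelled Mock. Whether the channels were exchanged was not tested.

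The promoters of the 5 integrins described first (ITGB7, ITGAV, ITGB6, ITGA5 and ITGA6) are shown as background to their values, from RefSeq (GRCh38.p14), as the 250 bases before an annotated start of the gene, 5′ to 3′ on the strand of the gene. Capitals mark a match to 1 of 3 motifs searched on both strands: the AP-1 core TGANTCA, the GC box GGGCGG and the TATA box TATAAA, with no overlap between matches in the windows shown.
ITGB7, chr12:53207252-53207501, minus strand: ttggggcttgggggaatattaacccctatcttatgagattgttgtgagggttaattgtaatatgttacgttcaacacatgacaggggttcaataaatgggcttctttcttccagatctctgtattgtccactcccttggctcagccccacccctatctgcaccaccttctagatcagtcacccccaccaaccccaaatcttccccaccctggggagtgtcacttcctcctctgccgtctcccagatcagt
ITGAV, chr2:186589806-186590055, plus strand: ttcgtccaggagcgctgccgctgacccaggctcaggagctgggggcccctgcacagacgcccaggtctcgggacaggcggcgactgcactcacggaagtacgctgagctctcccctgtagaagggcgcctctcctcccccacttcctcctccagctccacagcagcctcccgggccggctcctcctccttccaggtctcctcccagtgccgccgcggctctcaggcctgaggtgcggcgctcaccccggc
ITGB6, chr2:160200273-160200522, minus strand: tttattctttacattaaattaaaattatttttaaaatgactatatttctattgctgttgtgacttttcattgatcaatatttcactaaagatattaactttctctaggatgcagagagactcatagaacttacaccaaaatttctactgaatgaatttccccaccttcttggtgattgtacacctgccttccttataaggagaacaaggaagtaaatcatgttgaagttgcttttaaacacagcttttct
ITGA5, chr12:54419267-54419516, minus strand: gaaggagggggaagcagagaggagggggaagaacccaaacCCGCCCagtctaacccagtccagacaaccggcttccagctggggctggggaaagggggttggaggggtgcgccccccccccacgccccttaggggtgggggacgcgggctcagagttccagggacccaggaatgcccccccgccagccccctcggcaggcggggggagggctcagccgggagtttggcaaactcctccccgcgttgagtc
ITGA6, chr2:172427336-172427585, plus strand: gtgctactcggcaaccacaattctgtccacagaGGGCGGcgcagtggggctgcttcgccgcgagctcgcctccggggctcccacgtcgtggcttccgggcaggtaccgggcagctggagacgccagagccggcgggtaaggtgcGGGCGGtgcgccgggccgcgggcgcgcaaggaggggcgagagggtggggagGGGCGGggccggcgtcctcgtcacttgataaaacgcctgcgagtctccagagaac
The ITGB7, ITGAV and ITGB6 windows shown held none of these letters (nor did the second ITGAV window), that of ITGA5 held 1 GC box on the strand opposite to the gene, and the ITGA6 window shown, 1 of 2 listed for that gene, held 3. Over the 35116 promoters of the same length, 6.57% held the AP-1 core, 42.6% the GC box and 10.7% the TATA box. Of the 11 windows listed for 8 of the 10 integrins, 0, 4 and 2 held them, respectively. The GC content was 49.6% for ITGB7, 70.8% for the ITGAV window shown, 30% for ITGB6, 70% for ITGA5 and 71.6% for the ITGA6 window. ITGA3 and ITGB4 were not in the table.

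In ErbB2-KD, ITGB7 rose and no other integrin passed the test. In all, 1 of 14 probes tested was called, where 1.43% of all 23869 probes were. An unadjusted p under 0.05 by limma was seen for 5 of the 14 and for 4307 of the 23869. With MUC4-KD as labelled, 6 integrin genes had more RNA by their brightest probes than in the channel labelled Mock, and ITGB7 was lower. The 6 were ITGA1, ITGA5, ITGA6, ITGAV (1 of 2 probes called), ITGB1 (1 of 3 probes called) and ITGB6. With ITGB7 these were 7 of 15 probes tested, where 20.5% of all 25047 probes were called, 12.0% higher and 8.48% lower. Of all probes, 5131 were called there, and leaving out array 1, 2, 3 or 4 gave 588, 960, 154 and 9347, with 3, 3, 1 and 9 of the integrin probes. Over the 10 genes the median log2 ratio was 0.33 in ErbB2-KD and 0.79 in the experiment labelled MUC4-KD, beside medians of -0.00 and -0.01 over all genes tested. ITGA2, ITGA3 and ITGB4 were called in neither. No integrin was called in either experiment with median centring in place of loess or by the methods' t-test. Of all probes, these 2 settings called 31 and 0 in ErbB2-KD, and 1 and 106 in the experiment labelled MUC4-KD. The plot of the log2 ratios by array gives every value of the brightest probes.

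**Figure D1:**
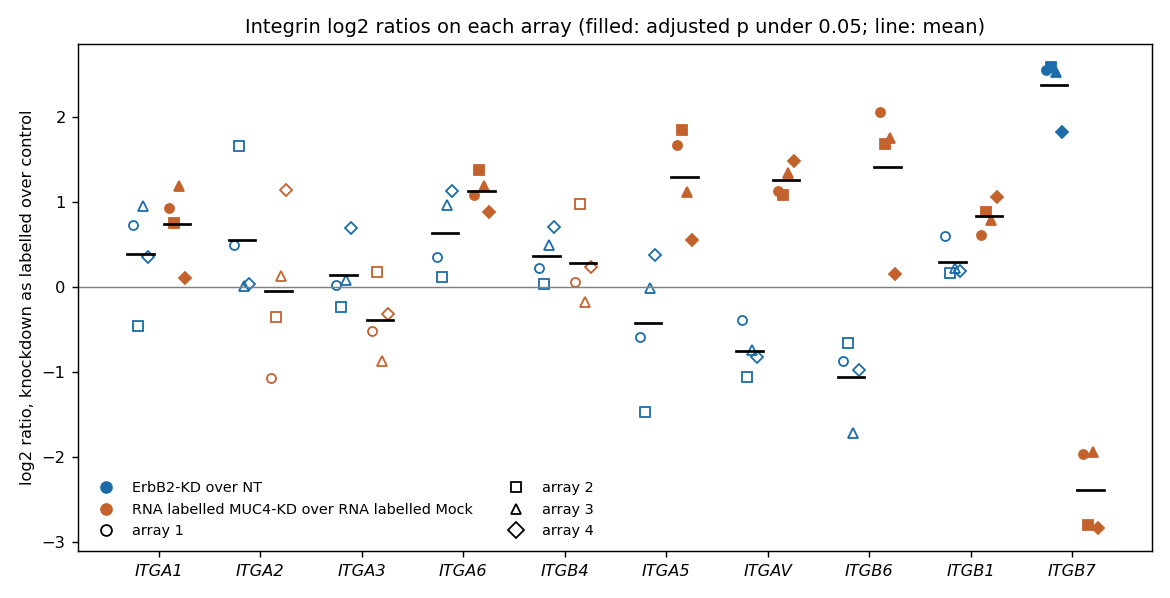
Log2 ratio of the brightest probe of each integrin on each of the 4 arrays of the 2 experiments, with collagen, laminin, fibronectin and αv receptors from left to right, then the shared β1 and β7. Filled symbols mark an adjusted p under 0.05 by limma, symbols mark the array and black lines the mean. ITGB7 lies above 0 on 4 of 4 ErbB2-KD arrays and below 0 on 4 of 4 MUC4-KD arrays as labelled, while ITGAV and ITGB6 lie the other way round.

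ITGB7 had the largest change of the 10 genes in both experiments. Its log2 ratio on ErbB2-KD arrays 1 to 4 was 2.56, 2.59, 2.53 and 1.82. Clones EV7, EV12 and EV9 lay close together and EV18 was lower. The mean was 2.38 ± 0.37 (SD, n = 4), 5.19-fold higher than NT (limma adjusted p = 0.0106). The call was lost without array 1 (2.31, limma adjusted p = 0.0604) and without array 3 (2.32, limma adjusted p = 0.0770). As labelled, the MUC4-KD ratios were -1.96, -2.80, -1.94 and -2.83. For ITGB7, arrays 1 and 3 were alike and so were arrays 2 and 4, and within each of these pairs the dyes were opposite. Over the 25047 probes tested, arrays 1 and 3 correlated at 0.83, but arrays 2 and 4 at only 0.36. As the labels do not name the clones, such a pair may hold 1 clone, and n = 4 may then be too high throughout the MUC4-KD experiment. With each pair averaged, 7 integrin probes were called there, not all of them the same, and ITGA1 was no longer called (limma adjusted p = 0.0655). Of all 25047 probes, 3595 were then called in place of 5131. The pairs were taken from ITGB7, so averaging them is no check of its own call. The mean was -2.38 ± 0.50 (SD, n = 4), 5.21-fold lower than in the channel labelled Mock (limma adjusted p = 0.00364), and the call held whichever array was left out. The normalized log2 intensity of the probe was 10.04 to 11.88 in ErbB2-KD and 7.73 to 9.29 in NT, 9.45 to 10.11 in the channel labelled MUC4-KD and 11.40 to 12.94 in the channel labelled Mock. The 2 channels did not overlap in either experiment, nor did those of ITGAV, ITGB6, ITGA6 and ITGB1 by their brightest probes. For ITGB1 the gap in ErbB2-KD was narrow, from 15.44 in NT to 15.45 in the knockdown. The share of all probes without overlap was not counted, and each pool is 1 control sample by the labels. For ITGB7 the channel labelled Mock was thus the brightest of the 4, and the empty-vector NT pool the dimmest.

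Of the 2 chains that pair with β7, α4 (ITGA4) was not well above background in any channel of the 8 arrays. αE (ITGAE), which forms the receptor for E-cadherin with β7, was well above background throughout. Its log2 ratio was 0.09, 0.57, 0.71 and 0.37 in ErbB2-KD (mean 0.44, limma adjusted p = 0.186). On the MUC4-KD arrays, as labelled, it was 0.88, 0.33, 0.90 and 0.38, and αE was higher there (mean 0.62, limma adjusted p = 0.0368; 0.0798 to 0.170 without array 1, 2 or 3 and 0.0793 with the arrays averaged in pairs). As labelled, αE and β7 therefore lay on the same side of their control in ErbB2-KD and on opposite sides in the MUC4-KD experiment. CDH1, which encodes the ligand E-cadherin, had mean log2 ratios of 0.03 (limma adjusted p = 0.921) and 0.32 (limma adjusted p = 0.114).

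**Figure D2:**
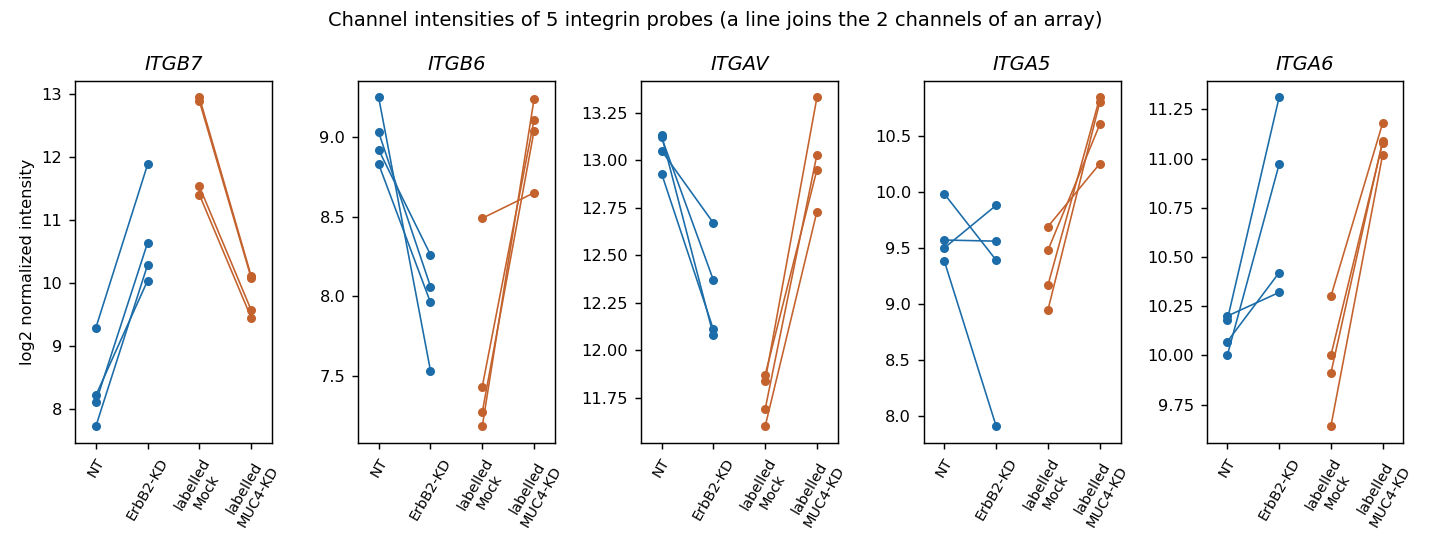
Normalized log2 intensity of 5 integrin probes in each channel, with a line joining the 2 RNAs of 1 array and a separate vertical scale in each panel. ITGB7 is brightest in the channel labelled Mock (11.40 to 12.94) and dimmest in NT (7.73 to 9.29). All panels but ITGA5 are separated between knockdown and control in both experiments, and the share of all probes so separated was not counted.

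The chains of αvβ6, the activator of latent TGF-β, lay on the opposite side of their control from ITGB7 on all 8 arrays. The log2 ratio of ITGAV in the channel labelled MUC4-KD was 1.13, 1.08, 1.34 and 1.49. ITGAV was higher there by 2.40-fold (mean 1.26 ± 0.19, SD, n = 4; limma adjusted p = 0.00458; 0.0579 without array 3). In ErbB2-KD it was -0.38, -1.05, -0.74 and -0.82. All 4 arrays lay below 0, but the mean of -0.75 ± 0.28 (SD, n = 4) did not pass (limma adjusted p = 0.0701). It passed where 1 spread was estimated over all 8 arrays (limma adjusted p = 0.0129). The log2 intensity of ITGAV was 12.08 to 12.67 in ErbB2-KD and 12.93 to 13.13 in NT, and 12.73 to 13.33 in the channel labelled MUC4-KD and 11.60 to 11.87 in that labelled Mock. The channels did not overlap in either experiment, and the share of all probes without overlap was not counted. The second ITGAV probe was dim, well above background on 1 of 4 arrays in ErbB2-KD and 3 of 4 in NT, and was not tested there. Its ratios had the same signs, at a mean of -0.32 in ErbB2-KD and of 0.34 in the channel labelled MUC4-KD (limma adjusted p = 0.0906).

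ITGB6, which encodes an epithelial chain that pairs with αv alone, had log2 ratios of 2.06, 1.68, 1.76 and 0.16 in the channel labelled MUC4-KD. Arrays 1 to 3 were well above 0 and array 4 was near it. The mean was 1.42 ± 0.85 (SD, n = 4), 2.67-fold higher than in the channel labelled Mock (limma adjusted p = 0.0325). It rose to 1.84 without array 4 (limma adjusted p = 0.00116), and the call was lost without array 1, 2 or 3 (limma adjusted p = 0.114 to 0.163). For ErbB2-KD the text of the study reports a rise of ITGB6, from its arrays and by quantitative RT-PCR. On the ErbB2-KD arrays as processed here the ratios were -0.87, -0.65, -1.72 and -0.97, the opposite direction. All were below 0, and the mean of -1.05 ± 0.46 (SD, n = 4) did not pass (limma adjusted p = 0.0658), except with the log ratios of Feature Extraction (-1.65, limma adjusted p = 0.0472). Its log2 intensity did not overlap between ErbB2-KD (7.53 to 8.26) and NT (8.83 to 9.25), nor between the channel labelled MUC4-KD (8.65 to 9.24) and that labelled Mock (7.18 to 8.49). Here too the share of all probes without overlap was not counted. The other β chains that pair with αv are those of ITGB1, described below, and of ITGB3, ITGB5 and ITGB8. ITGB3 was tested in neither experiment. ITGB5 was higher in the channel labelled MUC4-KD (mean 0.66, limma adjusted p = 0.0240; 0.0857 to 0.112 without array 1, 2 or 3 and 0.0562 with the arrays averaged in pairs) and at 0.04 in ErbB2-KD (limma adjusted p = 0.936). ITGB8 was at 0.10 in the channel labelled MUC4-KD (limma adjusted p = 0.639).

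ITGA5, the α chain of the fibronectin receptor α5β1, was higher in the channel labelled MUC4-KD. Its log2 ratio there was 1.67, 1.85, 1.12 and 0.55, and the mean was 1.30 ± 0.59 (SD, n = 4), 2.46-fold (limma adjusted p = 0.0192; 0.0713 to 0.109 without array 1, 2 or 3). In ErbB2-KD it was -0.58, -1.47, -0.01 and 0.38. The clones fell on both sides of 0, and the mean of -0.42 ± 0.81 (SD, n = 4) did not pass (limma adjusted p = 0.527). The ratios of ITGA5 differed by dye in both experiments. The mean was 0.84 with the labelled MUC4-KD in Cy5 and 1.76 with it in Cy3, and -1.03 and 0.19 in the same order for ErbB2-KD. The dye coefficient over 8 arrays was -1.07 and did not pass (limma adjusted p = 0.107). Each ErbB2-KD clone was in 1 dye, so dye and clone cannot be told apart in that experiment. FN1, the gene of fibronectin, had mean log2 ratios of -1.14 in ErbB2-KD (limma adjusted p = 0.107) and of 0.80 in the channel labelled MUC4-KD (limma adjusted p = 0.165).

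Of the laminin receptors, ITGA6 was higher in the channel labelled MUC4-KD, while ITGA3 and ITGB4 were not called. The log2 ratio of ITGA6 there was 1.08, 1.38, 1.19 and 0.88, averaging 1.13 ± 0.21 (SD, n = 4), 2.19-fold (limma adjusted p = 0.00603; 0.0639 without array 3). In ErbB2-KD it was 0.36, 0.12, 0.97 and 1.13, and averaged 0.64 ± 0.48 (SD, n = 4; limma adjusted p = 0.175). All 8 ratios of ITGA6 lay above 0. ITGB4, the partner of α6 in hemidesmosomes, had log2 ratios of 0.23, 0.04, 0.50 and 0.71 in ErbB2-KD (mean 0.37, limma adjusted p = 0.259). On the MUC4-KD arrays, as labelled, it was at 0.06, 0.98, -0.17 and 0.24 (mean 0.28, limma adjusted p = 0.341). ITGA3, of the laminin receptor α3β1, was at 0.03, -0.23, 0.08 and 0.70 in ErbB2-KD (mean 0.14, limma adjusted p = 0.729). It was at -0.52, 0.18, -0.87 and -0.32 in the channel labelled MUC4-KD (mean -0.38, limma adjusted p = 0.169). For both genes the spread between arrays was as large as the mean or larger in the MUC4-KD experiment.

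Of the collagen receptors, ITGA1 was higher in the channel labelled MUC4-KD and ITGA2 was called in neither experiment. The log2 ratio of ITGA1 there was 0.93, 0.75, 1.19 and 0.11, averaging 0.74 ± 0.46 (SD, n = 4), 1.67-fold (limma adjusted p = 0.0432; 0.130 to 0.182 without array 1, 2 or 3). In ErbB2-KD it was 0.73, -0.46, 0.95 and 0.35 (mean 0.39, limma adjusted p = 0.457), with clone EV12 alone below 0. The brightest ITGA2 probe was at 0.50, 1.66, 0.01 and 0.04 in ErbB2-KD (mean 0.55, limma adjusted p = 0.386). On the MUC4-KD arrays, as labelled, it was at -1.07, -0.35, 0.13 and 1.14 (mean -0.04, limma adjusted p = 0.945). In both experiments the arrays with the labelled knockdown in Cy5 were the higher ones.

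ITGB1, whose product pairs with α1, α2, α3, α5, α6 and αv, gave different values by probe. The brightest had log2 ratios of 0.62, 0.89, 0.79 and 1.06 in the channel labelled MUC4-KD. It was higher there by 1.79-fold (mean 0.84 ± 0.18, SD, n = 4; limma adjusted p = 0.0114; 0.0529 to 0.0823 without array 1, 2 or 3). In ErbB2-KD it was at 0.60, 0.17, 0.23 and 0.19 (mean 0.30, limma adjusted p = 0.287). The other 2 probes differed by the dye of the labelled knockdown instead. A_23_P104199 was at -0.84, -0.20, 0.70 and 1.73 in the channel labelled MUC4-KD, and A_23_P104193 was at -0.94, -0.05, 0.60 and 1.74. Arrays 1 and 2, with the labelled knockdown in Cy3, lay below 0 and arrays 3 and 4, with it in Cy5, above 0. Their means of 0.35 and 0.34 did not pass (limma adjusted p = 0.553 and 0.564). In a fit with the dye over all 8 arrays, the coefficient of Cy5 over Cy3 was 1.33 and 1.06 for these probes and 0.17 for the brightest. For ITGA2 it was 1.20 for the brightest probe and 0.97 and 0.33 for the other 2 tested. No dye coefficient passed among 25835 probes (limma, 0 called, 16.9% with an unadjusted p under 0.05). Each ErbB2-KD clone was in 1 dye and the MUC4-KD clones are not named, so dye and clone were not separated by these values. The mean ratio of each experiment averages over equal numbers of both dye orientations.

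**Figure D3:**
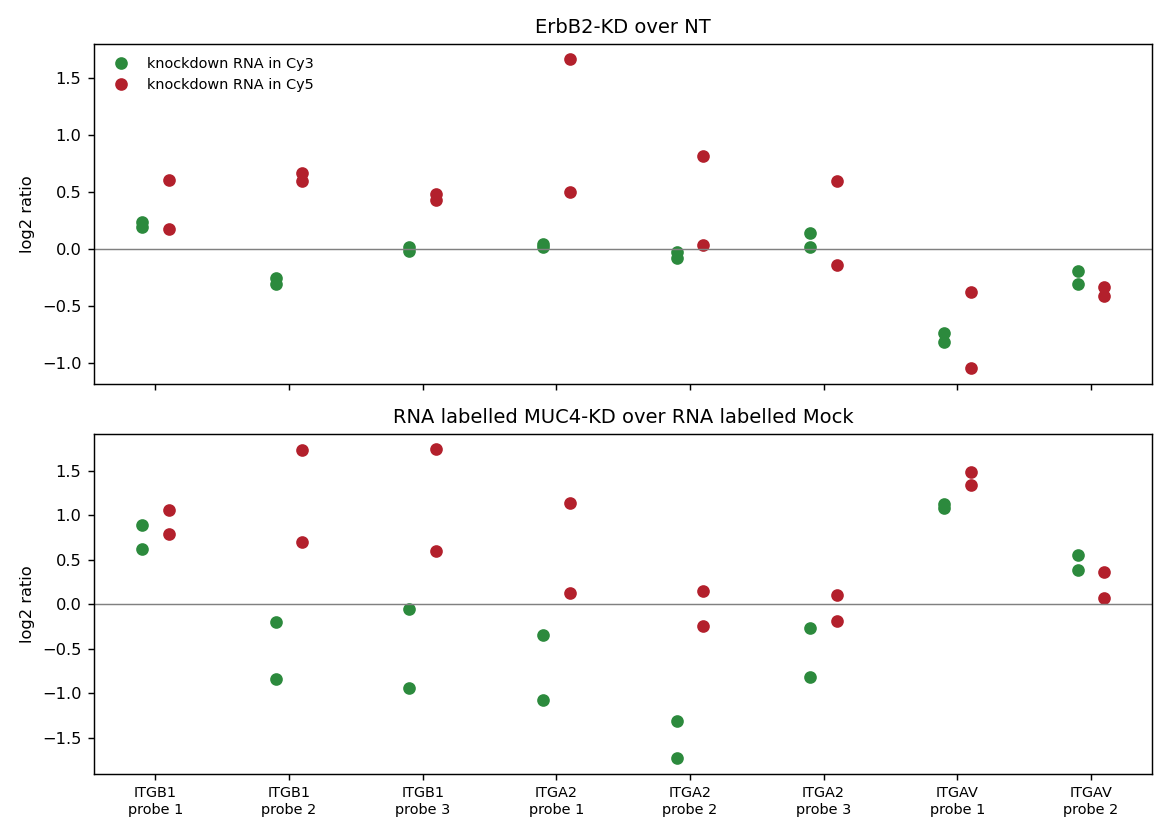
Log2 ratios of the 3 ITGB1 probes, the 3 brightest ITGA2 probes and the 2 ITGAV probes on each array, coloured by the dye of the labelled knockdown RNA, with probe 1 the brightest of each gene and ITGB1 probes 2 and 3 A_23_P104199 and A_23_P104193. ITGB1 probes 2 and 3 are higher on both Cy5 arrays than on both Cy3 arrays in each experiment, while ITGB1 probe 1 and ITGAV probe 1 keep their sign with either dye. ITGAV probe 2 was not tested in ErbB2-KD, and the dimmest ITGA2 probe, not tested in either experiment, is not drawn.

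The 2 experiments were then compared in 1 limma fit over 8 arrays, as the labelled MUC4-KD ratio minus the ErbB2-KD ratio. As labelled, 5 of 15 integrin probes from 4 genes differed, where 9.91% of 25835 probes did. Of the 5, 4 were higher (6.49% of all probes) and 1 was lower (3.41%). The difference was 2.47 for ITGB6 (95% confidence interval 1.55 to 3.39, limma adjusted p = 0.0104) and 2.01 for ITGAV (1.60 to 2.42, limma adjusted p = 0.00136). The second ITGAV probe gave 0.66 (limma adjusted p = 0.0289), a call lost in 7 of the 8 fits that left out an array (up to 0.0913). ITGA5 gave 1.72 (0.78 to 2.66, limma adjusted p = 0.0360), a call lost in 6 of 8 such fits (up to 0.101) and with the MUC4-KD arrays averaged in pairs (0.0976). ITGB7 gave -4.76 (-5.38 to -4.13, limma adjusted p = 0.000196). The calls of ITGB7, ITGB6 and ITGAV held with each of the 8 arrays left out. The 3 slides, which split the same 8 arrays, held only 1 or 2 arrays of each experiment. On each slide taken singly, the difference was -5.42, -5.35 and -3.77 for ITGB7, 2.54, 1.64 and 2.06 for ITGAV, 2.02, 2.15 and 1.01 for ITGA5, and 0.81, 2.98 and 2.88 for ITGB6.

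ITGB1 differed by 0.54 (0.17 to 0.91, limma adjusted p = 0.0663), ITGA6 by 0.49 (-0.06 to 1.04) and ITGA1 by 0.35 (-0.39 to 1.10), none of which passed. ITGB4 (-0.68 to 0.50), ITGA3 (-1.13 to 0.07) and ITGA2 (-1.71 to 0.53) had intervals that held 0. With the sign of the MUC4-KD ratios turned, the direction in which the study lists them, the calls changed. ITGB7 then had a mean of 2.38 in both experiments, and they differed by 0.01 (-0.62 to 0.63, limma adjusted p = 0.991). ITGB6 had means of -1.05 and -1.42 and differed by -0.36 (-1.28 to 0.56), ITGAV by -0.52 (-0.92 to -0.11, limma adjusted p = 0.0791) and ITGA5 by -0.88 (-1.82 to 0.07). ITGA6, ITGB1 and ITGA1 then passed instead, at -1.78 (limma adjusted p = 0.00303), -1.14 (limma adjusted p = 0.00374) and -1.13 (limma adjusted p = 0.0457). These were the 3 probes called of 15, where 17.2% of all probes were. The set of integrins that differed between the knockdowns thus depended on the direction of the labels.

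**Figure D4:**
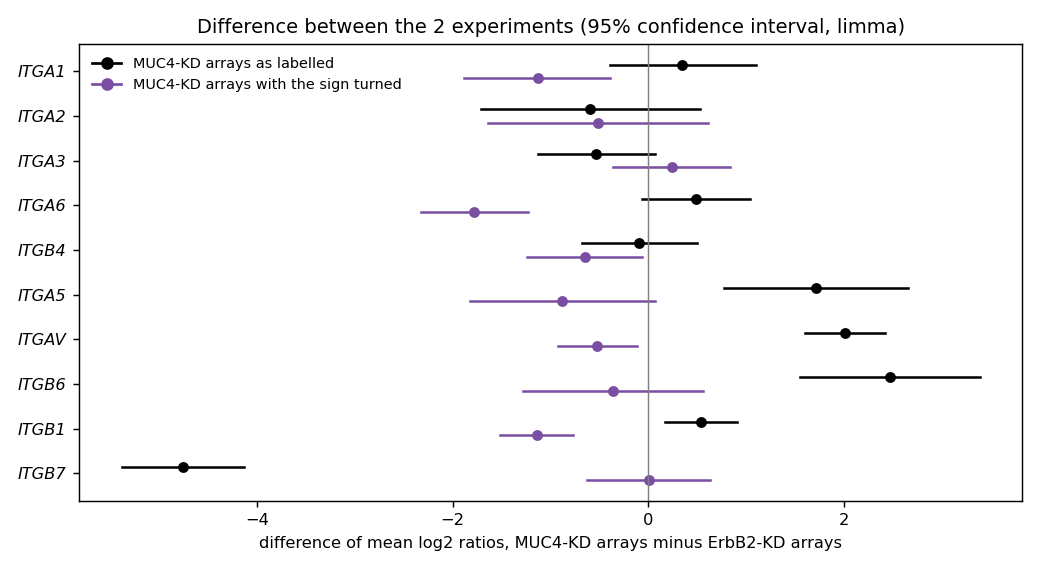
Difference between the mean log2 ratios of the MUC4-KD and the ErbB2-KD arrays for the brightest probe of each integrin, with its 95% confidence interval from limma over 8 arrays. Black is the direction of the labels, where ITGB7 lies at -4.76 and ITGB6 at 2.47, and purple is the turned sign, where ITGB7 lies at 0.01 and ITGA6 at -1.78.

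The genes that work with integrins were read by the brightest probe of each. In ErbB2-KD 1.94% of the 12004 genes tested were called, in the experiment labelled MUC4-KD 23.1% of 12271, and for the difference 11.4% of 12576. Of 16 other integrin subunits, 5 were tested in each experiment. In ErbB2-KD 0 were called, and in the channel labelled MUC4-KD ITGAE and ITGB5 were higher. The medians were 0.08 and 0.20.

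Of 20 ligand genes tested in ErbB2-KD, LAMA3 rose and COL7A1 fell (median -0.12). LAMA3, the α chain of laminin-332, the ligand of α3β1 and α6β4, had log2 ratios of 1.31, 1.14, 1.94 and 2.17 (mean 1.64, limma adjusted p = 0.0281). COL7A1, the collagen of the fibrils that anchor the basement membrane, was at -1.99, -1.33, -1.89 and -1.45 (mean -1.66, limma adjusted p = 0.0168). Both calls were lost without array 1, 3 or 4 (limma adjusted p = 0.0611 to 0.154). With MUC4-KD as labelled, 6 of 22 ligand genes were higher and 1 was lower (median 0.47). These 7 calls became 4, 4, 2 and 11 without array 1, 2, 3 or 4, and 0 with median centring. TGFBI, which encodes a TGF-β-induced matrix protein that binds integrins, was 16.6-fold higher, at 4.37, 3.56, 4.15 and 4.12 (mean 4.05, limma adjusted p = 0.000988). THBS1, the gene of thrombospondin 1, was lower, at -1.97, -2.23, -1.66 and -1.46 (mean -1.83, limma adjusted p = 0.00364). Both calls held with each array left out. In ErbB2-KD THBS1 was at 2.03, 5.93, 4.47 and 1.86, above 0 on 4 of 4 arrays without passing (mean 3.57, limma adjusted p = 0.0762), and the difference was -5.40 (limma adjusted p = 0.00760). COL4A1, a chain of basement membrane collagen, was higher at a mean of 1.17 (limma adjusted p = 0.0202; 0.0779 and 0.114 without array 2 and 3). LAMA3 was higher at 1.12 (limma adjusted p = 0.00862; 0.0678 without array 3), so that, as labelled, it rose with ITGA6 there. For the difference, 9 of 22 ligand genes were called, 4 to 7 with an array left out, 3 with the MUC4-KD arrays averaged in pairs and 1 with median centring.

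Of 27 focal adhesion genes tested in ErbB2-KD, FHL2, which encodes a LIM domain protein that binds integrin tails, was called (mean 1.16, limma adjusted p = 0.0421; 0.108 to 0.214 without array 1, 3 or 4). With MUC4-KD as labelled, 7 of 28 were higher and 1 was lower (medians 0.06 and 0.19). These 8 calls became 1, 0, 0 and 10 without array 1, 2, 3 or 4, 4 with the arrays averaged in pairs, when TNS3 and SHARPIN below lost theirs, and 0 with median centring. FERMT1, the gene of the integrin activator kindlin-1, had a mean log2 ratio of 0.90 (limma adjusted p = 0.0215). PTK2, the gene of focal adhesion kinase, was at 0.87 (limma adjusted p = 0.0130) and TNS3, that of tensin 3, at 0.83 (limma adjusted p = 0.0374). SHARPIN, which encodes an inhibitor of integrin activation, was lower at -0.45 (limma adjusted p = 0.0440). PTK2 lost its call without array 2 or 3 and the other 3 without array 1, 2 or 3 (limma adjusted p = 0.0603 to 0.191).

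Of 9 membrane partners and hemidesmosome genes, PLAUR, the gene of the urokinase receptor, rose in ErbB2-KD, at 1.48, 1.46, 1.80 and 1.85 (mean 1.65, limma adjusted p = 0.0118; 0.0601 to 0.0780 without array 1, 3 or 4). In the channel labelled MUC4-KD the 3 called were all higher (medians 0.09 and 0.30). Without array 1, 2, 3 or 4 the count was 1, 1, 0 and 5, and with median centring 0. CD47, the gene of the integrin-associated protein, was at 1.56 (limma adjusted p = 0.00748; 0.0623 without array 3), and the tetraspanin genes CD9 and CD82 were at 0.94 and 0.78 (limma adjusted p = 0.0189 and 0.0117; 0.0567 to 0.0895 without array 1, 2 or 3). PLEC, the gene of plectin, which binds β4 in hemidesmosomes, had a mean of 1.00 there (limma adjusted p = 0.0509). PLAUR was also the 1 gene of this list called for the difference, at -2.30 (limma adjusted p = 0.00385).

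**Figure D5:**
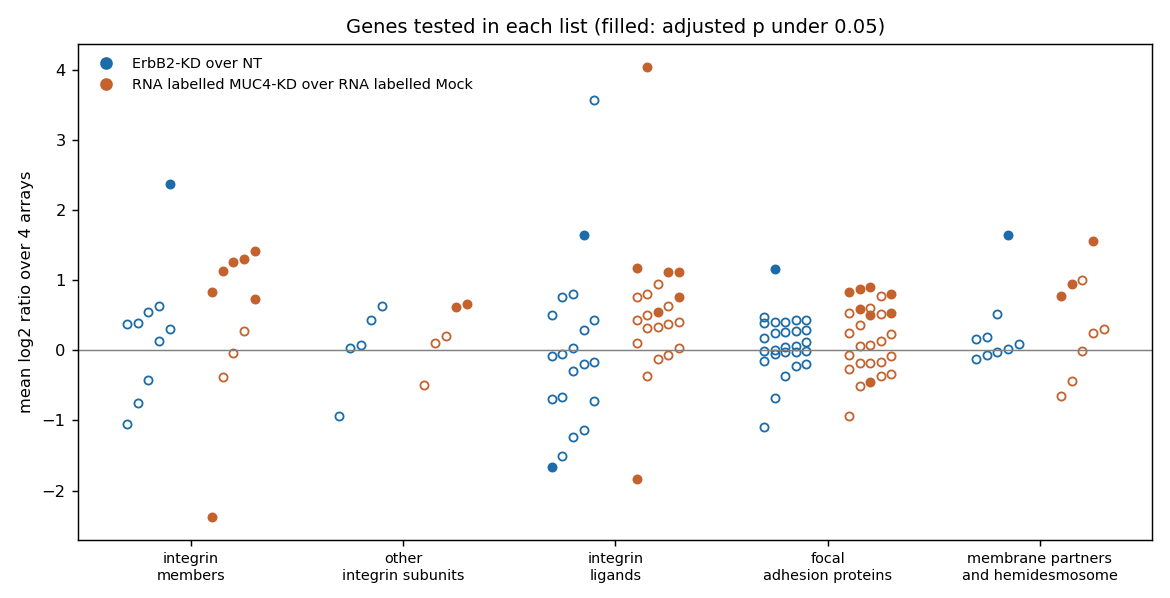
Mean log2 ratio over 4 arrays of each gene tested, for the 10 integrins and 4 lists of genes that work with them, with filled circles for an adjusted p under 0.05 by limma. In ErbB2-KD (blue) 1 integrin and 4 list genes are called, and in the channel labelled MUC4-KD over Mock as labelled (orange) 7 integrins and 20 list genes, of which TGFBI lies highest at 4.05 and ITGB7 lowest at -2.38.

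The genes whose log2 ratios over the 8 arrays lay closest to those of ITGB7 and ITGA6 were found by Euclidean distance among 11698 genes tested in both experiments. For ITGB7 they were KRT81 (distance 1.88), CYB5R2 (2.91), ST6GALNAC5 (2.97), DYSF (3.04) and LIPA (3.14). KRT81, a hair keratin gene, stood nearest by a clear step, with mean log2 ratios of 2.96 in ErbB2-KD and -3.04 in the channel labelled MUC4-KD. For ITGA6 they were ZNF318 (0.69), HMGN3 (0.70), ITPRID2 (0.75), EEIG2 (0.75) and WNT7A (0.80), with means of 0.46 to 0.86 in ErbB2-KD and 1.01 to 1.16 in the channel labelled MUC4-KD. No other integrin was among either set.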

How the data were processed

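RNA of CAPAN-2 clones was hybridised to 8 Agilent 2-colour arrays. The authors scanned them with Feature Extraction (version 10.5.1.1 per the file headers) and deposited, for each spot, the median intensity and background intensity of both dyes and a log10 ratio of Cy5 over Cy3. The deposited table of log10 ratios equals these within 4.993e-06 once turned to labelled knockdown over control, with a median of 0 on each array, and was not used separately. Spot positions and flags (other columns) were used as the authors deposited them.

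With limma 3.58.1 in R 4.3.3, normexp background correction used an offset of 50, outlier spots were omitted, arrays were normalized by loess, and ratios were turned to labelled knockdown over control and averaged by probe (43376 spots, 41000 probes). Channel intensities were also scaled between arrays by Aquantile. Accessions gave 25393 probes a symbol, and 15607 stayed unnamed here. Each experiment was tested against 0 by lmFit and eBayes, and the difference between experiments over all 8 arrays. The control pool counts as 1 control sample, so its own spread is left out, and p-values measure the spread between arrays. ErbB2-KD arrays carried 4 named clones. The MUC4-KD clones are not named in the labels. Arrays in opposite dyes with like ITGB7 ratios (1 with 3, 2 with 4) were therefore also averaged in pairs. As the pairs were taken from ITGB7, this setting is no check of the ITGB7 calls. Over all probes tested, arrays 1 and 3 correlated at 0.83, but arrays 2 and 4 at only 0.36. Arrays 1 and 2, which were not paired, correlated at 0.82. No spot was saturated, a channel had 57.96% to 74.95% of its probes well above background, and precision is limited by the number of arrays.

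The integrins, the gene lists and the markers were chosen with earlier results of these data known. Beside the integrins, the text names MUC4 and ERBB2, up to 3 genes per list, direction and experiment with the largest change among those called, and the 5 nearest genes of ITGB7 and ITGA6. The additional MUC4 probes and ITGA4, CDH1, FN1, ITGB3, ITGB8, PLEC and PTPRC were named after their values were seen, for their place beside an integrin or a label. The steps were tested on simulated data. Alternatives were an offset of 10, Feature Extraction's log ratios, median centring, no filter, a both-channel filter, a term for dye, slide as a block, robust eBayes with an intensity trend, 1 fit over 8 arrays, the methods' t-test, MUC4-KD arrays averaged in pairs, the replicate number as a block, averaging the tested probes of each gene and leaving out each array. The MUC4-KD sign turned, and slide as a random block over 8 arrays, were chosen after seeing the data. The pairs of MUC4-KD arrays were taken from ITGB7 ratios already seen.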

Additional observations from a re-analysis of the deposited data

Results flagged for a closer look

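Among 20 sets of 4 arrays, by gene and experiment, 2 had an array that lay apart by Dixon's test at the 95% level, where chance flags about 1 in 20. ITGB7 was at 1.82 on ErbB2-KD array 4 (clone EV18) and at 2.53 to 2.59 on the other 3 arrays. ITGB1 was at 0.60 on ErbB2-KD array 1 (clone EV7) and at 0.17 to 0.23 on the others.

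For 4 integrins the labelled MUC4-KD ratio differed from the ErbB2-KD ratio in the limma fit over 8 arrays. The difference was -4.76 for ITGB7, 2.47 for ITGB6, 2.01 for ITGAV and 1.72 for ITGA5. With the sign of the MUC4-KD ratios turned, none of these 4 differences passed (limma adjusted p = 0.0791 for ITGAV, 0.170 for ITGA5, 0.562 for ITGB6 and 0.991 for ITGB7).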

How the results depend on the processing

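In ErbB2-KD, 1 integrin probe was called. Feature Extraction log ratios called 2, as did 1 fit over all 8 arrays with or without slide as a block. Of all probes, 342 were called as reported, 486 with Feature Extraction log ratios, and 1095 and 1121 by those fits. Median centring, an intensity trend with robust eBayes and Student's t-test called 0, beside 31, 0 and 0 of all probes. Leaving out each array gave 0 to 1, beside 0 to 487 of all probes. In the channel labelled MUC4-KD, where 7 were called, median centring and Student's t-test gave 0, beside 1 and 106 of all probes. With an array left out there, 1 (without array 3) to 9 (without array 4) were called, beside 154 and 9347 of all probes. For the difference, where 5 were called, median centring gave 1, and Student's t-test, the averaged pairs and the turned sign gave 3 each. Of all probes, 2559 were called as reported and 117, 546, 568 and 4433 in these settings, in that order. Fits of the difference that left out an array gave 3 to 6 integrin probes, beside 638 to 5060 of all probes. The cause of these changes was not tested. Median centring, which leaves the intensity-dependent dye trend in place, called 1 of all probes in the experiment labelled MUC4-KD and 31 in ErbB2-KD. By Student's t-test, 8 of 15 integrin probes in the channel labelled MUC4-KD had an unadjusted p under 0.05, beside 6916 of all 25047 probes. In ErbB2-KD they were 3 of 14, beside 3176 of all 23869.

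Means close to 0 changed sign. With median centring, ITGA2 was at 0.11 in the channel labelled MUC4-KD and the ITGB4 difference at 0.13. With each array left out, ITGA3 ranged from -0.04 to 0.27 in ErbB2-KD, and ITGA2 from -0.43 to 0.31 and ERBB2 from -0.47 to 0.02 in the channel labelled MUC4-KD. The ITGB4 difference ranged from -0.33 to 0.06. With the MUC4-KD sign turned, the differences were -1.13 for ITGA1, 0.24 for ITGA3, -0.88 for ITGA5, -1.78 for ITGA6, -0.52 for ITGAV (-0.02 for its second probe), -1.14 for ITGB1, -0.36 for ITGB6 and 0.01 for ITGB7. The second ITGAV probe, dim in ErbB2-KD, had a difference of 3.10 with the log ratios of Feature Extraction. No integrin called as reported changed direction under any other alternative.

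Arrays of the 2 experiments share replicate numbers only as numbers: the deviations of same-numbered arrays from their means correlated at -0.24 to -0.05 over 23081 probes. With the number as a replicate block, the difference called 3 integrin probes in place of 5, and 584 of all probes in place of 2559. Slide as a block could not be fitted within 1 experiment, because 4 arrays on 3 slides gave no estimate of its correlation. Over all probes, 342 were called in ErbB2-KD, 0 without array 1 (3864 with an unadjusted p under 0.05) and 4 without array 3.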
